A study of Mus musculus with 6 samples.

Results

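Heat shock proteins and their cochaperones were described in cells sorted from hindlimb muscle as satellite cells, which are stem cells of muscle fibres. The members are the genes whose symbols begin with Hspa, Hspb, Hspd, Hspe, Hsph, Hsp90, Dnaja, Dnajb, Dnajc or Bag followed by a number or by a or b, and the authors' deposited table holds 79 of them among 23361 genes. RNA came from mice aged 4 months, in 3 wild-type samples and 3 AUF1-null samples, all bred on a mixed C57BL/6 and 129 background and all sorted for the surface proteoglycan Sdc4 after collagenase digestion. Hnrnpd encodes AUF1, an RNA-binding protein of AU-rich mRNAs, and the comparison asks which transcripts differ without it. The table gives 1 value per condition on the FPKM scale (fragments scaled by transcript length and by library size), pooled over replicates, so no spread between samples stands beside a value and the depth behind it is unknown. It names the conditions q1 and q2. The table was deposited under a name that puts wild type before knockout, but neither the table nor the labels say that q1 is wild type, so no genotype was assigned and every direction below only sets q2 against q1.

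Marker values describe the cells that the sort yielded. The satellite cell gene Pax7 was listed in the authors' deposited table at 1.16 and 0.85 and Myf5 at 16.7 and 17.8, while the endothelial gene Pecam1 was at 421 and 327. Sdc4, on which the cells were sorted, was in the authors' deposited table at 173 and 269.7 and Vcam1 at 90.8 and 65.1. Of the 8 satellite cell markers, 4 lay higher and 4 lower in q2, with a median log2 fold change of -0.07 and none called or at 0. Their summed level was 318 in q1 and 385 in q2. For 8 endothelial markers the sums were 16508 and 13820, mostly from Fabp4, at 14386 and 12031.5. Sums for 8 smooth muscle and pericyte markers were 3590 and 4653, mostly from Rgs5, at 2279 and 3553. The values below thus describe a mixed pool of cells, and the share of satellite cells in it was not measured. All 12 neutrophil markers lay higher in q2, and the authors' deposited table gave them a summed level of 1202 in q1 and 15495 in q2. By the authors' Cuffdiff q below 0.05, 9 of the 12 were called, beside 0.612% of all tested genes. All 12 muscle fibre markers lay higher in q2 too, with sums of 1911 and 3654 in the authors' deposited table and none called. In RNA from a pool of sorted cells, fewer cells of a type and less RNA per cell cannot be told apart. Hnrnpd itself, at 7.5 and 5.59 in the authors' deposited table (Cuffdiff q = 0.999), does not tell the conditions apart.

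Heat shock proteins are chaperones, which bind unfolded or damaged proteins and help them fold, move or be degraded. HSP70 proteins (the Hspa genes) bind and release clients in a cycle of ATP hydrolysis. J proteins (the Dnaj genes) bring clients to HSP70 and start hydrolysis, while Bag proteins and the HSP110 protein Hsph1 help it release ADP. HSP90 finishes the folding of kinases and steroid receptors, the small heat shock proteins (Hspb) hold unfolded clients without ATP, and Hspd1 with Hspe1 forms the folding chamber of mitochondria. On stress, heat shock factor 1 binds heat shock elements, which are alternating GAA and TTC units, in the promoters of the inducible members. The small heat shock protein encoded by Hspb1 and the HSP70 protein encoded by Hspa8 have been found in complexes with AUF1 and are known to affect the decay of AU-rich mRNAs. The tissue dissociation used to isolate satellite cells is itself known to induce heat shock genes.

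No member passed the test. By the authors' Cuffdiff q below 0.05, 0 of 73 tested members were called, where 0.612% of all 14858 tested genes were called in either direction. At an unadjusted Cuffdiff p below 0.05 there were 2 members, Hspb1 and Hspa1b, or 2.74% of the tested members, beside 5.99% of all tested genes. Both were lower in q2, a direction in which 2.27% of all tested genes lay at that p, so the share is near the background. The next member by p was Dnajc28, at an unadjusted Cuffdiff p of 0.0501 in the authors' deposited table.

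As a group, the members centred close to 0. In the authors' deposited table, 35 of the 73 tested members lay higher and 38 lower in q2, with a median log2 fold change of -0.02, beside a median of -0.01 over all tested genes above 0 on both sides. For 60 of the 73, or 82.2%, the log2 fold change was within 0.5 of 0, which held for 69.1% of all tested genes above 0 on both sides. Low genes vary more, and among genes that reached 10 FPKM in either condition the same shares were 85.2% of 54 members and 81.6% of all such genes. Summed over the members, the values came to 10073 in q1 and 10447 in q2, or 1.58% and 1.52% of the sum over the table.

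**Figure D1:**
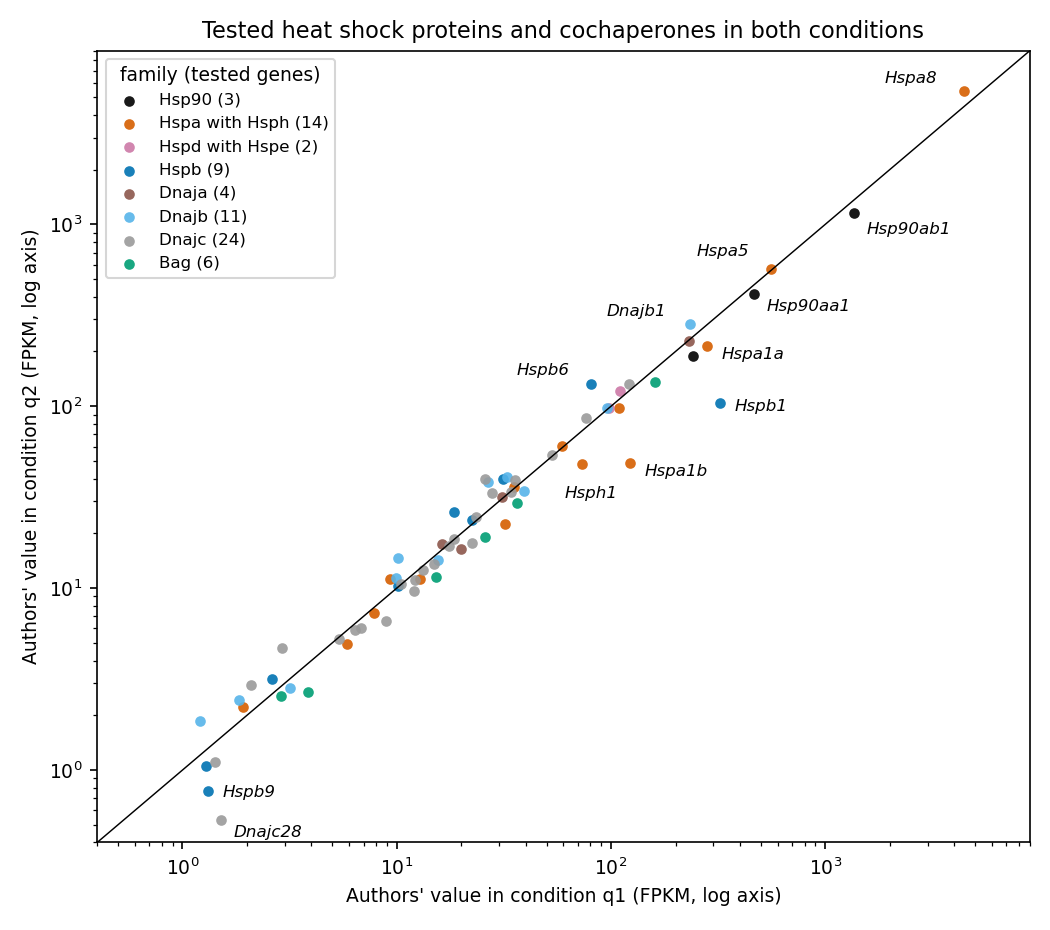
Each point is 1 of the 73 tested members, with the authors' value in q1 on the x axis and in q2 on the y axis (FPKM, both axes on a log scale), coloured by family; the line marks equal values. Most points lie close to the line over the whole range of levels, while Hspb1, at 322 and 104, and Hspa1b, at 122 and 48.7, lie below it.

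Hspa8, which encodes the constitutive HSP70 of the cytosol, was by far the most abundant member. The authors' deposited table listed it at 4424 in q1 and 5376 in q2 (log2 fold change 0.28, Cuffdiff p = 0.616, q = 0.999), which ranked 8th and 7th among all tested genes. It held 43.9% of the members' summed value in q1 and 51.5% in q2, so the ratio of the sums, 1.04, turns on this gene and was 0.898 without it. Hspa5, the HSP70 of the endoplasmic reticulum, was in the authors' deposited table at 559 and 571. The mitochondrial HSP70 gene Hspa9 was at 59.3 and 60.7 there, and Hspa2, best known from the testis, at 109 and 98.3. These abundant HSP70 genes differed little between conditions.

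The stress-inducible pair Hspa1a and Hspa1b, which encode the HSP70 that cells make on heat shock, lay lower in q2. Hspa1b, at chr17:34956429-34959238 (GRCm38), was listed at 122 and 48.7 in the authors' deposited table, a level 2.51-fold higher in q1 (log2 fold change -1.33, Cuffdiff p = 0.00680, q = 0.369). Hspa1a, at chr17:34969359-34972156, was at 282 and 213 in the authors' deposited table (log2 fold change -0.40, Cuffdiff p = 0.304, q = 0.999). The genes lie 10120 bases apart and are near copies: their coding sequences, of 1926 and 1929 bases in GENCODE vM21, were identical at 99.4% of aligned positions. Reads from either copy can therefore be assigned to the other, and the separate values are uncertain. In the authors' deposited table the level of Hspa1a was 2.30 times that of Hspa1b in q1 and 4.38 times in q2, and summed over both genes the level was 404 in q1 and 262 in q2, a log2 difference of -0.63.

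The other HSP70 relatives were lower in level and none was near the threshold. Hsph1, the HSP110 exchange factor, was at 72.9 and 47.9 in the authors' deposited table (log2 fold change -0.61, Cuffdiff p = 0.132). Its relatives Hspa4 and Hspa4l were at 12.8 and 11.3 and at 5.85 and 4.93 there. The authors' deposited table gave Hspa14, a ribosome-associated HSP70, as 35.1 and 35.9, Hspa13 as 9.26 and 11.2, Hspa12a as 7.79 and 7.33, and Hspa1l as 1.93 and 2.21. Hspa12b, known from endothelial cells, was at 32.0 and 22.5 in the authors' deposited table, but its deposited locus spans 477 kb and takes in 12 other genes, so that value is uncertain. All 8 endothelial markers lay lower in q2 as well, with a median log2 fold change of -0.27, none called and none at 0, and their part in the Hspa12b value was not tested. In all, the deposited loci of 10 members overlap other genes of the table. Over the 14 genes of the Hspa and Hsph family, 6 lay higher and 8 lower in q2, with a median log2 fold change of -0.12.

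All 3 HSP90 genes lay lower in q2 by a small margin, and none passed. Hsp90ab1, the constitutive cytosolic form, was listed at 1367 and 1148 in the authors' deposited table, second among the members. Hsp90aa1, the inducible form, was at 467 and 414 there, and Hsp90b1, the form of the endoplasmic reticulum, at 241 and 189.9. Their log2 fold changes in the authors' deposited table were -0.25, -0.17 and -0.34, with a smallest Cuffdiff p of 0.353. The family's summed level was 2075 in q1 and 1751 in q2, or 20.6% and 16.8% of the members' sum.

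The mitochondrial chaperonin genes had close values in both conditions. Hspd1, which forms the chamber, was in the authors' deposited table at 97.8 and 97.9, and Hspe1, its lid, at 109.7 and 122. The genes lie head to head on chromosome 1, with 215 bases between their deposited loci. In RefSeq GRCm38 they overlap, since Hspd1 reaches to 55088243 and Hspe1 begins at 55088148. GENCODE vM21 and the table name 5 pseudogene copies of Hspd1 and 6 of Hspe1, with which reads can be shared.

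The small heat shock proteins varied the most among themselves. Hspb1 had the smallest p of all members: the authors' deposited table listed it at 322 in q1 and 104 in q2, a level 3.09-fold higher in q1 (log2 fold change -1.63, Cuffdiff p = 0.00155, q = 0.168). It lies at chr5:135887919-135889563 (GRCm38). Of the 14858 tested genes in the authors' deposited table, 134 had a smaller Cuffdiff p than Hspb1. No replicate spread is available with which to judge the Hspb1 difference, and it did not pass over all genes.

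Some small heat shock proteins lay on the opposite side. Hspb6, a phosphoprotein of muscle also called HSP20, was at 81.0 and 133 in the authors' deposited table, a level 1.64-fold higher in q2 (log2 fold change 0.72, Cuffdiff p = 0.0621, q = 0.898). Hspb7 of heart and muscle was at 18.6 and 26.2 there, and Hspb2, a partner of myotonic dystrophy kinase, at 31.3 and 39.7. Neither passed. Among other small heat shock proteins that muscle also expresses, Hspb8 had a log2 fold change of 0.02 and the crystallin gene Cryab of 0.07 in the authors' deposited table. Hspb3, with -0.28, was too low for its difference to be read. All 12 muscle fibre markers were also higher in q2 (median log2 fold change 0.85, range 0.39 to 1.54; none was called and none was at 0 on either side). Smooth muscle and pericyte markers, another set of contractile cells, had a median of -0.20 with 3 of 8 higher. Their summed level was nevertheless higher in q2, at 3590 in q1 and 4653 in q2, since the most abundant, Rgs5, was at 2279 and 3553. The part of either cell type in the Hspb6, Hspb7 and Hspb2 values was not tested.

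The remaining genes of the family had close values or were low. Hspb8, which works with Bag3 in the autophagy of damaged proteins, was at 10.1 and 10.3 in the authors' deposited table. Hspb3 was at 1.29 and 1.06 and the testis gene Hspb9 at 1.32 and 0.77 there, too low for the differences to be read. Hspb11, at 22.4 and 23.8 in the authors' deposited table, is a protein of cilium transport, and Hspbap1, at 2.61 and 3.17, is a partner of a small heat shock protein that the name rule takes. Of all 9 genes, 6 lay higher and 3 lower in q2, with a median log2 fold change of 0.08 and a range from -1.63 to 0.72.

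**Figure D2:**
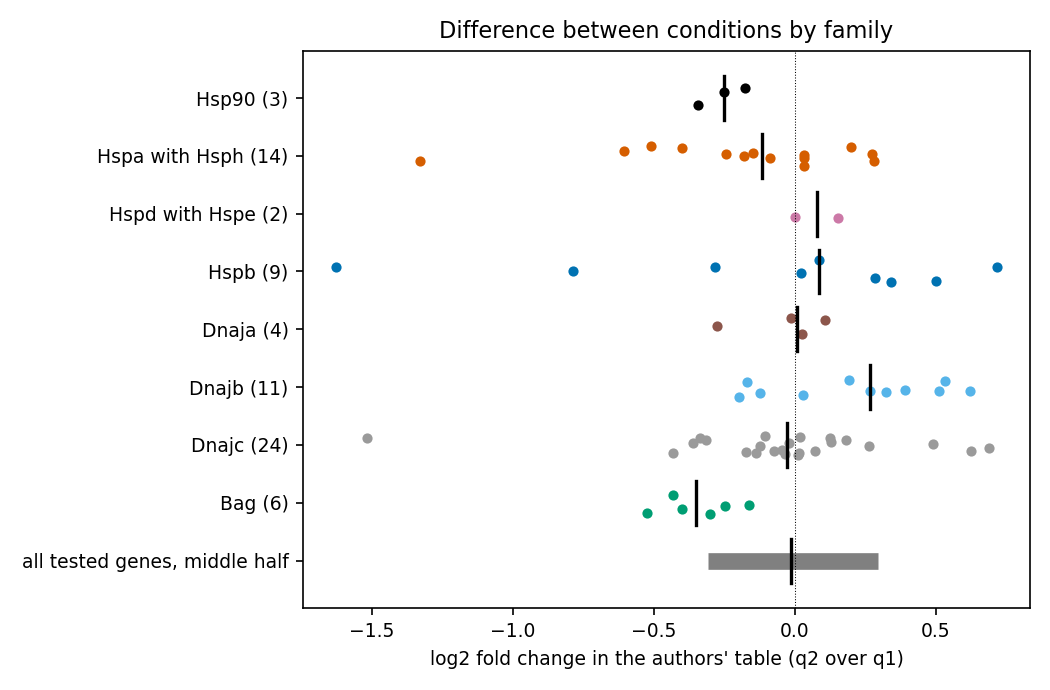
Each point is the log2 fold change (q2 over q1) of 1 tested member in the authors' table, by family; black lines are medians and the grey bar spans the interquartile range of all tested genes, -0.31 to 0.29. The 3 Hsp90 and 6 Bag genes all lie below 0, the Dnajb median is 0.27, and Hspb1, Hspa1b and Dnajc28 lie apart at the left.

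J proteins of the Dnaja and Dnajb classes start the HSP70 cycle, and their main stress-inducible members were abundant in both conditions. Dnajb1, also called HSP40, was at 234 and 282 in the authors' deposited table (log2 fold change 0.27, Cuffdiff p = 0.460). Dnaja1 was at 231 and 229 there, although its deposited locus takes in 3 other genes. The other class A genes were lower in level: Dnaja2 was at 31.1 and 31.6, the mitochondrial Dnaja3 at 19.9 and 16.5, and Dnaja4 at 16.3 and 17.6 in the authors' deposited table.

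Of 11 tested Dnajb genes, 8 lay higher in q2, with a median log2 fold change of 0.27 and none near the threshold. Dnajb6, which is mutated in a limb-girdle muscular dystrophy, was at 95.7 and 97.7 in the authors' deposited table. Dnajb4 was at 32.5 and 40.7 there and Dnajb5 at 10.1 and 14.7. Among the J proteins of the endoplasmic reticulum, Dnajb9 was at 26.8 and 38.2 and Dnajb11 at 39.3 and 34.3 in the authors' deposited table, so these partners of Hspa5 lay on opposite sides. The authors' deposited table further gave Dnajb2 as 15.5 and 14.2, Dnajb12 as 9.90 and 11.3, and Dnajb14 as 3.19 and 2.84. Dnajb7, at 1.21 and 1.87, and Dnajb13, at 1.84 and 2.41, were low in the authors' deposited table, and Dnajb3 and Dnajb8, both below 0.3 FPKM, were not tested by the authors. The deposited locus of Dnajb7 spans 54.7 kb and takes in Xpnpep3, so its value is also uncertain.

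Class C J proteins, which have the J domain but otherwise differ in structure and role, formed the largest family and centred close to 0. Of 24 tested genes, 11 lay higher and 13 lower in q2, with a median log2 fold change of -0.03. The spliceosome-associated Dnajc8 was at 121 and 132 in the authors' deposited table, Dnajc19 of the mitochondrial import motor at 76.3 and 86.5, and Dnajc7, a bridge between HSP70 and HSP90, at 53.2 and 53.7. Values of Dnajc19 can include its neighbour Fxr1, whose locus it shares in the table. Dnajc4, at 25.7 and 39.7, and Dnajc27, at 2.90 and 4.67, had the largest differences upward in the authors' deposited table, with Cuffdiff p of 0.121 and 0.119. Dnajc28 had the largest difference downward, from 1.52 to 0.53 FPKM in the authors' deposited table (log2 fold change -1.52, or -0.72 with a pseudocount of 1, Cuffdiff p = 0.0501, q = 0.835). Its size rests on values near 1 FPKM.

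Among class C proteins of the endoplasmic reticulum, Dnajc10, a disulfide reductase, was at 34.2 and 33.7 and Dnajc3, an inhibitor of the kinase PERK, at 22.3 and 17.7 in the authors' deposited table. Dnajc5, the cysteine string protein of secretory vesicles, was at 27.9 and 33.4 there, and Dnajc15 of mitochondria at 35.8 and 39.1. Dnajc2, which works at the ribosome, was in the authors' deposited table at 8.93 and 6.62, and Dnajc13 of endosomes at 6.37 and 5.92. The other 12 tested genes lay between 1.1 and 24.5 FPKM. The genes Dnajc6, Dnajc22, Dnajc5b and Dnajc5g were not tested, the last pair being listed at 0 in both conditions.

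All 6 Bag genes lay lower in q2, with a median log2 fold change of -0.35 and a range from -0.52 to -0.16. Bag3, which links HSP70 and Hspb8 to autophagy and is needed to maintain muscle fibres, was at 160.2 and 135 in the authors' deposited table (Cuffdiff p = 0.498). Bag5 was at 36.2 and 29.4 there, Bag1, which also binds the anti-apoptotic protein Bcl2, at 25.8 and 19.1, and Bag6, of the pathway for tail-anchored proteins, at 15.2 and 11.5. Bag2, an inhibitor of the ubiquitin ligase Stub1, was in the authors' deposited table at 3.87 and 2.69, and Bag4 at 2.87 and 2.57. Every Bag gene was within 1.44-fold, the smallest Cuffdiff p among them was 0.314, and 51.3% of all tested genes above 0 on both sides were lower in q2 in the authors' deposited table.

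The members known to be induced through heat shock factor 1 were then set side by side. The list holds Hspa1a, Hspa1b, Hspa8, Hspb1, Hsph1, Hsp90aa1, Hspd1, Hspe1, Dnaja1, Dnajb1 and Bag3. All 11 were above 40 FPKM in both conditions, and they held 64.8% of the members' sum in q1 and 67.7% in q2. That share is mostly Hspa8, the constitutive gene of the list: the other 10 held 20.8% in q1 and 16.2% in q2, a lower share in q2, with 3 higher and 7 lower. By the deposited values, 4 lay higher and 7 lower in q2 in the authors' deposited table, with a median log2 fold change of -0.17, beside 31 higher and 31 lower among the other 62 tested members. The list did not move as 1 group: Hspb1, Hspa1b and Hsph1 lay lowest, while Dnajb1, Hspe1 and Hspd1 were at or above 0.

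**Figure D3:**
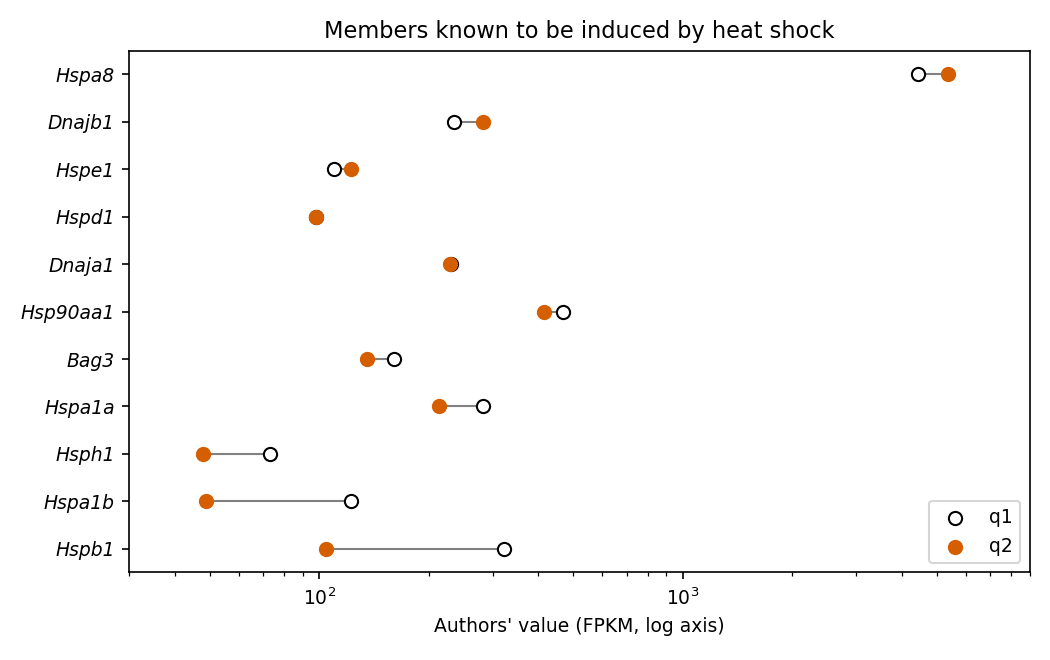
The authors' value in q1 (open circles) and q2 (filled circles) for the 11 members known to be induced by heat shock, in FPKM on a log axis, ordered by log2 fold change. The gap is widest for Hspb1 (322 and 104) and Hspa1b (122 and 48.7), and the circles nearly coincide for Hspd1 (97.8 and 97.9) and Dnaja1 (231 and 229).

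Promoter stretches are printed for the inducible members that differed most and for members with close values, since heat shock factor 1 acts through these sequences. RefSeq promoters on GRCm38.p6 were at hand for 64 of the 79 members. The 250 bases before each listed start were searched for GAANNTTC and TTCNNGAA, each its own reverse complement, where N is any base. For a gene with several starts, the start with the most matches was counted and printed. Dnaja1 has 3 listed starts, and Hsph1, Hspd1 and Dnajb6 have 2. At least 1 match was present for 7 of 9 inducible members, or 77.8%, for 7 of 55 other members, or 12.7%, and for 14.5% of 27025 genes in the promoter table. The inducible list was itself chosen for known induction through heat shock factor 1, so its share does not test that link. Its matches are not all separate, since Hspe1 and Hspd1 count the same stretch and Hspa1a and Hspa1b are near copies. Longer runs of 3 alternating units were found for 3 members, Hspe1 and Hspd1 with the same run and Dnajb6, and for 0.514% of all genes. Matches are in capitals below, all stretches read 5′ to 3′ on the strand of the gene.
Hspb1: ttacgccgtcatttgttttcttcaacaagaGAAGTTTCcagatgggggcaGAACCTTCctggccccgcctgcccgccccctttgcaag
Hspa1b: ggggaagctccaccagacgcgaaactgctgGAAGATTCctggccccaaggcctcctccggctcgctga
Hsph1: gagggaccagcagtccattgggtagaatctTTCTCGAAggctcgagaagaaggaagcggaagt
Dnaja1: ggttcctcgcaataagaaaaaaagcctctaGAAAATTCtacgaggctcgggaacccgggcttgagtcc
Hspe1: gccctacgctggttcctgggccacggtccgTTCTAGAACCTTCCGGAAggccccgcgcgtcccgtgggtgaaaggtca
Dnajb6: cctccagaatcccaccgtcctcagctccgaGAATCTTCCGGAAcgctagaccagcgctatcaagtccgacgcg

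The Hspb1 stretch, at chr5:135887772-135887859 on the plus strand, holds 2 separate matches that begin 117 and 97 bases before the start. The Hspa1b stretch, at chr17:34959305-34959372 on the minus strand, holds 1 match, 104 bases before the start. The same letters stand at chr17:34972223-34972290 before Hspa1a, and the 250 bases before the starts of both genes differ at 3 positions. Hspe1 and Hspd1 share 1 stretch, at chr1:55088029-55088106, in the 215 bases between their deposited loci and within the longer RefSeq span of Hspd1. It is printed on the plus strand of Hspe1 and holds the longest run, of 3 overlapping matches. The remaining stretches lie at chr5:149636337-149636399 on the minus strand for Hsph1, chr4:40722314-40722381 on the plus strand for Dnaja1 and chr5:29735822-29735894 on the plus strand for Dnajb6. The Hsph1 stretch precedes a start inside the RefSeq gene, which reaches to 149636498.

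The letters are set beside the differences here, and a link between the letters and the differences was not tested. Hspb1, Hspa1b and Hsph1, printed because they differed most among the inducible members, are among the 14 tested members with a match. The longest runs stood before Hspe1, Hspd1 and Dnajb6, whose log2 fold changes were 0.15, 0.00 and 0.03 in the authors' deposited table. Hspa1a and Hspa1b have the same letters. Their separate log2 fold changes there, -0.40 and -1.33, are uncertain because reads can be assigned to either copy. Summed over both genes, the log2 difference was -0.63. Over the tested members with a promoter in the table, the median log2 fold change was -0.00 for the 14 with a match, 7 of them lower, and -0.10 for the 46 without, 24 of them lower. No match in these windows says only that these letters are not in them, and Bag3 and Dnajb1 had none.

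AU-rich letters, which AUF1 proteins bind, were sought in 3' UTRs of GENCODE vM21, the longest one for each gene. The heptamer TATTTAT (RNA strand) was present for 15 of 73 tested members, or 20.5%, and for 29.7% of 13070 tested genes with a 3' UTR. Median 3' UTR lengths were 1103 and 1136 bases. Among the 11 inducible members Hsph1 alone held it, at base 77 of a 3' UTR of 963 bases, and the site is shown with the heptamer in capitals.
Hsph1: cagactgagtcTATTTATattttcttttt
The other carriers included Bag5, Dnajc27, Dnajb14 and Dnajc15. The median log2 fold change was -0.04 for the 15 members with the heptamer and -0.02 for the 58 without, and the 3' UTRs with it were longer, at a median of 3330 against 918.5 bases. Hspb1 and Hspa1b, the members with the smallest p, did not hold the heptamer. No match says only that this heptamer is not in the 3' UTR searched, and other AU-rich letters were not sought.

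None of the genes that work with the members was called, and none of the chaperone partners in the lists below lay under an unadjusted Cuffdiff p of 0.05. Heat shock factor 1, encoded by Hsf1, was at 28.7 and 28.0 in the authors' deposited table, Hsf2 at 11.5 and 10.6 and the inhibitor gene Hsbp1 at 129 and 138. Hsf4 was below 1 FPKM. Of 18 HSP90 cochaperones, 6 lay higher and 12 lower in q2 (median log2 fold change -0.13). Ptges3, or p23, was in the authors' deposited table at 288 and 304 and Ahsa1, the activator of the HSP90 ATPase, at 80.8 and 78.7. The cochaperone Stip1, which joins HSP70 to HSP90, was at 48.0 and 59.0 there and the ubiquitin ligase gene Stub1 at 65.0 and 53.7. Among 9 tested HSP70 partners, 6 lay higher (median 0.24), and the authors' deposited table gave St13 as 53.4 and 49.3 and Hscb as 22.6 and 29.0.

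The cytosolic chaperonin, which folds actin and tubulin, had 5 of 8 tested subunits higher in q2 and a range of log2 fold changes from -0.21 to 0.27. Its subunit gene Cct5 was in the authors' deposited table at 172 and 163 and Cct7 at 98.9 and 102. Of 5 prefoldin genes 3 lay higher, with Pfdn5 at 444 and 397 and Pfdn2 at 79.9 and 78.8 in the authors' deposited table. Among 5 mitochondrial genes 2 lay higher (median -0.35), with Trap1, the mitochondrial HSP90, at 36.9 and 37.4 and the protease gene Clpp at 36.6 and 28.8 there. Of 9 endoplasmic reticulum folding genes 3 lay higher (median -0.05), with P4hb at 198 and 205 and Pdia3 at 196 and 166 in the authors' deposited table. Cryab, the crystallin of muscle, was at 150.3 and 158 in the authors' deposited table.

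Immediate early genes, which tissue dissociation is also known to induce, were high in both conditions. The authors' deposited table listed Fos at 3120 and 2815 and Btg2 at 1148 and 1273. Of 10 genes, 5 lay higher and 5 lower in q2 (median log2 fold change -0.02). Jun, at 209 and 117, and Jund, at 93.5 and 48.1, lay below the unadjusted Cuffdiff p of 0.05 in the authors' deposited table (p = 0.0375 and 0.0288, q = 0.764 and 0.707). Neither was called. Whether Hspb1, Hspa1b, Jun and Jund were lower in the same samples cannot be read from pooled values.

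**Figure D4:**
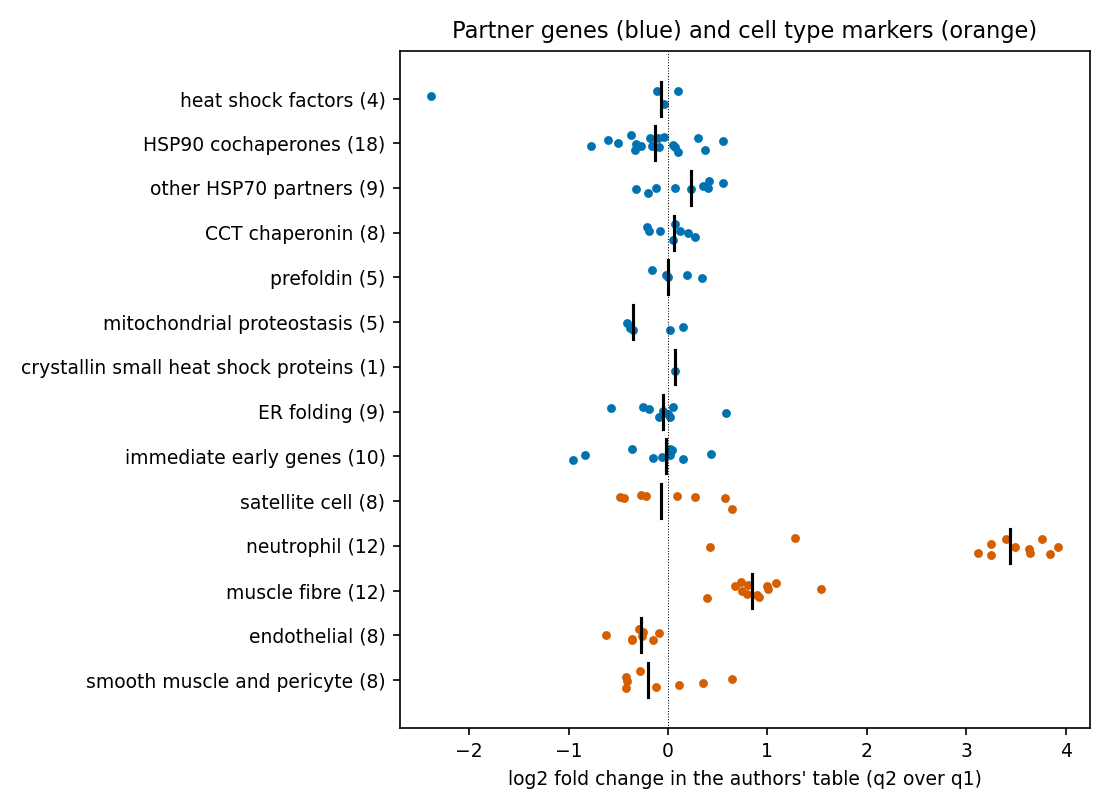
Each point is the log2 fold change (q2 over q1) of 1 tested gene in the authors' table, for chaperone partners and immediate early genes (blue) and cell type markers (orange), with black lines at the medians. The partner lists centre between -0.35 and 0.24, while the neutrophil markers centre at 3.44 and the muscle fibre markers at 0.85.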

How the data were processed

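RNA sequencing of 6 samples was used, 3 of each genotype. The submitters' processing notes name Cufflinks 2.2.1, TopHat2 2.0.9 and the mm9 build. The deposited positions nevertheless match GRCm38: all 79 members overlap the RefSeq GRCm38 gene of their name, so positions are given in GRCm38, 1-based, with 1 added to the start. The scaling of libraries, the annotation and the strand setting could not be stated (not given in the sources used here). Per the file headers, which follow Cuffdiff, the authors deposited 1 value per gene and condition, which Cuffdiff writes as FPKM although the heading names no unit, a log2 fold change, a test statistic (a score, not used), and p-values with q-values. Values per sample were not analysed here. The labels do not say that samples came from separate animals, so the spread behind the p-values may be technical.

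A gene counted as tested when its status was OK and as called at q below 0.05. No test was added: members, families and lists are described by counts and medians. The deposited q equalled a Benjamini-Hochberg adjustment of p over all 14858 tested genes, and the adjustment and motif search were tested on simulated data. Named by rule were the 3 highest genes of each family, the 5 largest rises and 5 largest falls at or above 1 FPKM, members below an unadjusted p of 0.05 and the 11 inducible members, with the 2 highest of each partner list; others were chosen after their values were seen. Members and lists were chosen with earlier results of these data known. Alternatives covered the q threshold, low values, pseudocounts, centring and single members. Python 3.11.15 and pandas 2.3.3 were used.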

Additional observations from a re-analysis of the deposited data

How the results depend on the processing

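No member was called at a Cuffdiff q below 0.1, or with p-values adjusted again over genes of at least 1 or 10 FPKM. The count at a Cuffdiff q below 0.01 was then bound to be 0 too. The 2 members below an unadjusted Cuffdiff p of 0.05 (Hspb1 and Hspa1b) stayed with at least 1 FPKM, a level that both far exceed. The q below 0.01 and the 1 FPKM limit on this p count could not move and are among the 22 alternatives below. With at least 10 FPKM the median log2 fold change of the members was 0.01 in place of -0.02, and without Hspa8 the ratio of summed values was 0.898 in place of 1.04; the latter follows from the share that Hspa8 holds, and the cause of the former was not tested. The other 22 alternatives for counts, medians and sums stayed within 1.5 times the count or within 0.1 on the log2 scale without a change of sign. These include 1 chosen after seeing the data, in which Hspa1a and Hspa1b were summed and the median of the inducible list was -0.09 in place of -0.17. The share of the members' sum held by the inducible list without Hspa8, also chosen after seeing the data, was 20.8% in q1 and 16.2% in q2 in place of 64.8% and 67.7%. Pseudocounts of 0.1 and 1, added to both values of the 31 named members, cannot change a direction. They bear on size only, and the largest shift was that of Dnajc28, from -1.52 to -0.72. No paired analysis was possible because the table holds no value per sample, and for the same reason no sample could be left out. The depth is unknown, so how large a difference these data could have shown for a gene is unknown too.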

Other observations

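Of the 79 members, 7 lie on chromosome 5, which also carries Hnrnpd, the gene that encodes AUF1. They include Hspb1, 35.9 Mb from Hnrnpd, and Hsph1, 49.6 Mb from it, for which the authors' deposited table gave log2 fold changes of -1.63 and -0.61, and Dnajc2, 78.2 Mb away, with -0.43. Hspb8, the nearest at 16.4 Mb, had 0.02 there, Dnajc30 at 35.1 Mb had 0.07, and Dnajb6 at 70.2 Mb had 0.03. Dnajc30 lies within 1 Mb of Hspb1 and was listed with 23.3 and 24.5 FPKM in the authors' deposited table, although its locus there overlaps Wbscr22. The labels give a mixed strain background, and its part in these values was not tested.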
